A study of Saccharomyces cerevisiae S288C with 9 samples.

Results

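The 60 ribosome biogenesis factor genes described here encode proteins that assemble the small and large ribosomal subunits of budding yeast. They were listed by systematic name, with earlier results of these data known. All 60 were found among the 7127 annotated rows of the deposited count table. RNA was sequenced from Saccharomyces cerevisiae S288C cells grown in rich YPD medium to mid-log phase, with no treatment, in 3 groups. The S228E group carried a Set1 protein in which 1 serine, at the position given in the name, is replaced by glutamate, the S228A group carried alanine at the same position, and the WT group was the wild-type control. Each group had 3 libraries, which the design text calls biological replicates, so there were 9 libraries in all. The labels do not say how each allele was introduced or whether a group is 1 clone.

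Ribosome assembly starts in the nucleolus, where RNA polymerase I transcribes a long precursor that holds the 18S, 5.8S and 25S rRNAs. Small nucleolar ribonucleoproteins (snoRNPs) modify and fold this precursor. The U3 snoRNP and the UTP proteins form the small subunit processome on its leading end, and other factors build the 60S precursor on the rest. Helicases, GTPases and methyltransferases then drive the particles towards the cytoplasm. In yeast the genes of these factors are known to be transcribed together as the ribosome biogenesis regulon, which is high in fast growth and low in stress. Set1 is the enzyme that, within the COMPASS complex, methylates histone H3 on lysine 4. Alanine cannot be phosphorylated, and glutamate is often used as a stand-in for phosphoserine.

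Total counts per library ranged from 14455017 to 19658103. Values are CPM, that is counts per 1000000 mapped counts, after TMM scaling, and a gene is called here when its edgeR quasi-likelihood adjusted p is under 0.05 and its fold change is over 1.5, the threshold named in the design text. RPKM, which also divides by gene length, is used wherever levels of different genes are set side by side. All 60 members passed the filter on low counts, among 6133 rows tested. The S228A libraries stood apart from the other 6 in marker genes of the pheromone response: the summed level of 12 markers was 418 to 437 CPM in S228E, 11696 to 14238 CPM in S228A and 329 to 467 CPM in WT, and all 12 were called higher in S228A than in WT. The summed level of 8 histone genes was 4014 to 4247 CPM in S228E, 846 to 934 CPM in S228A and 4222 to 4920 CPM in WT. Of 7 general stress markers, 4 were called lower in S228A than in WT, and their summed level was 2919 to 3908 CPM in S228E, 2481 to 2815 CPM in S228A and 3445 to 4103 CPM in WT. The part of these states in the differences described below was not tested. In RNA from whole cultures, fewer cells expressing a gene and less RNA per cell cannot be told apart.

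Most promoters of the members hold a pair of short sequence elements. PAC, the element bound by the repressors Dot6 and Tod6, was searched as GCGATGAG and as its core GATGAG. RRPE, the element bound by Stb3, was searched as TGAAAAATT and as the core AAAAATTT, which overlaps it. Both strands were read, from 250 bases before to 50 bases after each start codon, in the RefSeq R64 sequence. The PAC core was in 57 of 60 member promoters (95%), against 19.9% of 5898 promoters of the genome, members included. The full PAC was in 34 members (56.7%), against 4% of promoters. The RRPE core was in 53 members (88.3%), against 14.4%, and the longer RRPE in 33 members (55%), against 6.48%. Both cores stood in 51 member promoters (85%) and in 5.73% of all promoters. The 1 member with neither core in its window was UTP22 (YGR090W).

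These stretches show the pair of elements in members that the results below return to. Capitals mark matches to either element on either strand, and each line is read from 5′ to 3′ on the coding strand of the gene. UTP8, BRX1, KRR1 and NOP58 are higher in S228A than in WT, NOG2 and NOP4 have negative fold changes in that comparison, and NOP1 has the highest level per length.
UTP8 (chrVII:750175-750209, minus strand): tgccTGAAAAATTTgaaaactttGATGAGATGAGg
BRX1 (chrXV:186858-186889, minus strand): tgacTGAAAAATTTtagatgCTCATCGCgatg
KRR1 (chrIII:23469-23522, minus strand): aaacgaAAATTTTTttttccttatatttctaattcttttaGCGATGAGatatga
NOP58 (chrXV:898471-898500, minus strand): tttggaAAATTTTTCAacCTCATCgaaaat
NOG2 (chrXIV:723272-723299, minus strand): ccgatgCTCATCGCAAAAATTTTTcgct
NOP4 (chrXVI:469794-469830, plus strand): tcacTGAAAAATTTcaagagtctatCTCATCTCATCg
NOP1 (chrIV:427134-427171, plus strand): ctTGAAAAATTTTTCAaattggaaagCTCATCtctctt

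Stretches were shown only where both cores lay within 60 bases, as in 50 members, so the closeness seen in them follows from that choice. In 44 of the 51 members with both cores, the RRPE core was farther from the start codon than its nearest PAC core, and the median distance between the first bases of such a pair was 17 bases. PAC core matches in members had a median distance of 121 bases from the start codon, with quartiles of 100 and 147 bases. RRPE core matches had a median of 144 bases, with quartiles of 131 and 169 bases. Across all promoters the medians were close to these, at 121 and 140 bases, but the matches of both cores were spread wider. The quartiles there were 76 and 179 bases for the PAC core and 109 and 181 bases for the RRPE core. The pheromone response element TGAAACA was in 1 member promoter (1.67%), that of UTP15, against 7.32% of all promoters. The Reb1 motif TTACCCG was in 9 member promoters (15%), against 7.21%.

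**Figure D1:**
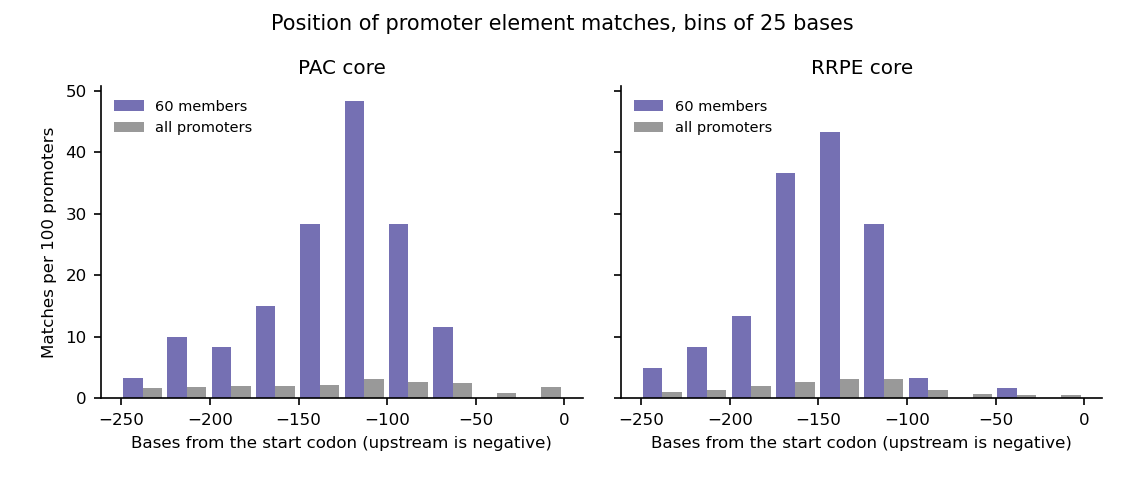
Matches to the PAC core (left) and the RRPE core (right) per 100 promoters, in bins of 25 bases upstream of the start codon, for the 60 members (purple) and for all promoters (grey). The highest bin of the members is 101 to 125 bases before the start codon for PAC and 126 to 150 bases for RRPE.

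Members with and without a full element had close medians. The median log2 fold change of S228A over WT was 0.19 for members with the full PAC and 0.14 for those without it, and 0.18 for members with and without the longer RRPE. The cores, which few members lack, gave 0.18 with and 0.19 without for PAC, and 0.18 with and 0.11 without for RRPE. In S228E over S228A the median was -0.07 for members with the RRPE core and 0.02 for those without it. These medians are given as descriptions.

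Levels of the members differed by up to 50.2 times per unit of length. NOP1 (YDL014W), the fibrillarin methyltransferase of box C/D snoRNPs, had the highest level, with a mean of 899 RPKM over the 9 libraries. It was followed by TIF6 (YPR016C), which keeps the 60S precursor from joining the small subunit too early, at 440 RPKM, and by GAR1 (YHR089C) of the H/ACA snoRNPs at 375 RPKM. CBF5 (YLR175W), the pseudouridine synthase of the same particles, averaged 273 RPKM, and NSR1 (YGR159C), a nucleolin-like protein, averaged 271 RPKM. The lowest levels were those of UTP20 (YBL004W), a large repeat protein of the processome, at 17.9 RPKM, RRP9 (YPR137W), a U3 snoRNP protein, at 18.5 RPKM, and SPB1 (YCL054W), a methyltransferase of 25S rRNA, at 21.4 RPKM. The median of the members was 51.5 RPKM, against 44.5 RPKM for 5720 protein-coding rows, and 32 of the 60 members were above the protein-coding median. As a group, the 6 snoRNP core proteins ran from 213 to 899 RPKM, while the 6 UTP-A genes ran from 29.2 to 71.6 RPKM.

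Some of these levels may be understated by the way reads were counted. In 7 members part of the coding sequence is also covered by another annotated row, and the counting command in the file headers sets no option that would assign such reads. NSR1 shares 46.9% of its length with the dubious reading frame YGR160W. Over its unshared bases alone its mean level would be 511 RPKM. RRP9 shares 27.8% of its length and would be at 25.6 RPKM on that basis. NOP56 and NOP58 would be at 273 and 255 RPKM, against 215 and 213 RPKM over the whole length. NOG2 hosts the snoRNA snR191 within its intron, and no base of its exons is shared. Fold changes compare a gene with itself, and each library was counted over the same bases.

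Within each group the members moved together from library to library. The 60 genes took 0.880%, 0.802% and 0.787% of all counts in the S228E libraries, 0.796%, 0.930% and 0.899% in the S228A libraries, and 0.752%, 0.843% and 0.728% in the WT libraries. The groups overlap: the lowest S228A library is below the highest WT library. In S228E replicate 1, 58 of 60 members lay above their own group mean, in S228A replicate 1 none of 60 did, and in WT replicate 2 59 of 60 did. The median deviation of the members from their own group was 0.08 on the log2 scale in S228E replicate 1, -0.14 in S228A replicate 1 and 0.14 in WT replicate 2, while the median over all rows was within 0.01 of 0 in each of these libraries. A list of 134 further assembly factors that are not members, exosome and nuclease genes included, did the same. It had 115, 6 and 123 of 134 genes above their group mean in these 3 libraries. Ribosomal protein genes moved as the members did in WT replicate 2, with 134 of 136 above. They did not in S228E replicate 1, with 17 of 136, nor in S228A replicate 1, with 114 of 136. The summed pheromone marker level was 11696 CPM in S228A replicate 1, the lowest of its group, 14238 CPM in replicate 2 and 12537 CPM in replicate 3. The part of this shared movement in the differences between groups was not tested beyond leaving out each library in turn.

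**Figure D2:**
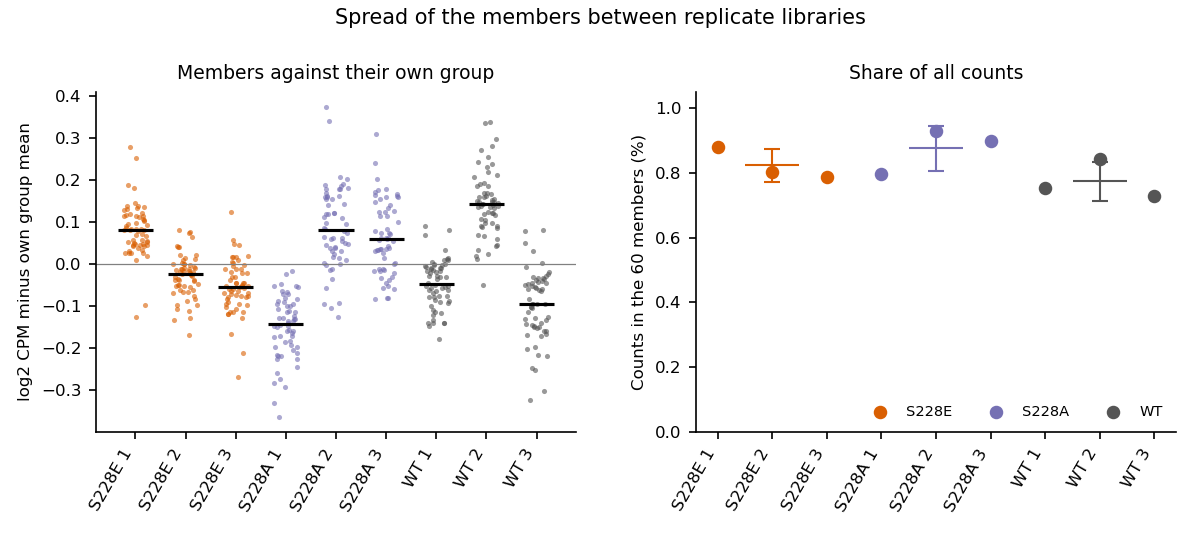
Left, log2 CPM of each of the 60 members minus its own group mean in each library, with the median as a black line; right, share of all counts in the 60 members per library, with group mean and SD (n = 3). S228A replicate 1 has all 60 members below its group mean, WT replicate 2 has 59 above, and the shares of the 3 groups overlap.

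S228A against WT was the comparison in which most members passed the test, and all that passed were higher in S228A. Of the 60 members, 14 (23.3%) had an adjusted p under 0.05 and a higher level in S228A, against 15.5% of all rows tested. No member was lower at that threshold, against 19.4% of all rows, and DESeq2 and limma-voom likewise found none lower after adjustment. At an unadjusted p under 0.05, 2 members (3.33%) were lower, against 24.1% of all rows. The differences were small. Only ESF1 also passed the fold threshold of 1.5, 1 of 60 members (1.67%) against 12.2% of all rows called in either direction. Positive log2 fold changes were seen in 52 of 60 members (86.7%), against 48.9% of all rows. The median log2 fold change of the members was 0.18, with quartiles of 0.07 and 0.25, against a median of -0.01 over all rows tested. Leaving out 1 library at a time, that median ran from 0.13 without WT replicate 3 to 0.26 without WT replicate 2, with 45 to 57 positive. In 13 members (21.7%) every S228A library was above every WT library, a share near the 20.2% of all rows, and in none was every S228A library below, against 24.3% of all rows. The count of 14 depended on single libraries, most on those of WT: it was 6 without WT replicate 1 and 26 without WT replicate 2. It was 21 without S228A replicate 1 and 10 without S228A replicate 3.

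Of the 14 members, 6 passed under all 17 alternative settings tried, namely ESF1, BRX1, UTP22, UTP8, DBP9 and RLP24. NOP7, NOP56 and PWP2 passed in 16 and failed without WT replicate 1, with adjusted p-values of 0.0723, 0.0571 and 0.0533. UTP20 failed in 2, without S228A replicate 3 or WT replicate 1, and HAS1 in 3, without S228A replicate 2 or WT replicate 1 or 3. KRR1 and RLP7 each failed in 6: with scaling by library totals, with only the 6 libraries compared, and without S228A replicate 2 or 3 or WT replicate 1 or 3. NOP58 also failed in 6.

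ESF1 (YDR365C), a nucleolar protein needed for the maturation of 18S rRNA, rose by more in S228A against WT than any other member. Its level was 227.95, 225.65 and 205.28 CPM in the S228E libraries, 313.93, 349.63 and 325.93 CPM in the S228A libraries, and 203.88, 219.18 and 230.04 CPM in the WT libraries. All 3 S228A libraries lay above all 6 others, and the S228E and WT libraries overlapped. The log2 fold change of S228A over WT was 0.60 ± 0.08 (SE, adjusted p = 5.87e-05). S228E over WT was 0.01 ± 0.08, with a 95% interval of -0.15 to 0.18 (adjusted p = 0.987). S228E over S228A was -0.59 ± 0.08 (adjusted p = 7.46e-05). The size is close to the threshold: without S228A replicate 2 the log2 fold change over WT was 0.57, and without WT replicate 1 it was 0.55, both under 1.5-fold, with adjusted p-values of 0.000237 and 0.000773.

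ESF1 lies on chromosome IV at 1204497 to 1206383, on the minus strand. A Ty1 retrotransposon, YDRWTy1-5, occupies 1206704 to 1212621 on the plus strand, so 320 bases separate its edge from the start codon of ESF1 and the gene and the element point away from each other. This stretch of the interval, from 200 to 101 bases before the start codon, holds all 3 PAC cores and both RRPE cores found there.
ESF1 (chrIV:1206484-1206583, minus strand): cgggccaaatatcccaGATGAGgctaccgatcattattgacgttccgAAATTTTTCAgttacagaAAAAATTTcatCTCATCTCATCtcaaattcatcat
No pheromone response element TGAAACA was found in the interval or in the first 1000 bases of the element. ESF1 therefore has both elements between its start codon and the edge of the transposon.

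The Ty1 reading frame next to ESF1, YDR365W-B, was higher in S228A as well. It had 16.2, 11.9 and 13.6 CPM in the S228E libraries, 31.0, 38.1 and 31.2 CPM in the S228A libraries, and 12.2, 11.7 and 13.6 CPM in the WT libraries. The log2 fold change of S228A over WT was 1.42 ± 0.13 (adjusted p = 3.87e-06). Copies of Ty1 are much alike. The counting command sets no option for reads placed at several sites and the aligner is not stated, so how reads shared by copies were counted is not known. Over the genome, 45 of 53 transposon rows tested had an adjusted p under 0.05 and were higher in S228A than in WT. CDC40, the gene on the other side of ESF1, did not pass the test, at 0.02 ± 0.08 (adjusted p = 0.87). MOR1, whose row overlaps the far end of the Ty1 element, had at most 1.24 CPM in any library. It did not pass the test, at 0.33 ± 0.41 (adjusted p = 0.572). KEI1, the gene after MOR1, fell by 0.59 ± 0.11 on the log2 scale (adjusted p = 0.00136).

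Few other members have a Ty element nearby, and the nearest ones did not share a direction. RRP9 has the Ty1 element YPRCTy1-2 564 bases beyond its 3′ end. UTP20 has YBLWTy1-1 683 bases upstream, on the same strand. The next members by distance are SPB4 at 1242 bases and ERB1 at 2179 bases. RRP9 had a log2 fold change of -0.33 ± 0.13 for S228A over WT (adjusted p = 0.0687), the lowest of all members. UTP20 rose by 0.30 ± 0.09 (adjusted p = 0.0253). SPB4 was at 0.18 and ERB1 at 0.24, neither of which passed the test, with adjusted p-values of 0.0984 and 0.0575. With so few members near an element, whether distance goes with the difference was not tested.

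**Figure D3:**
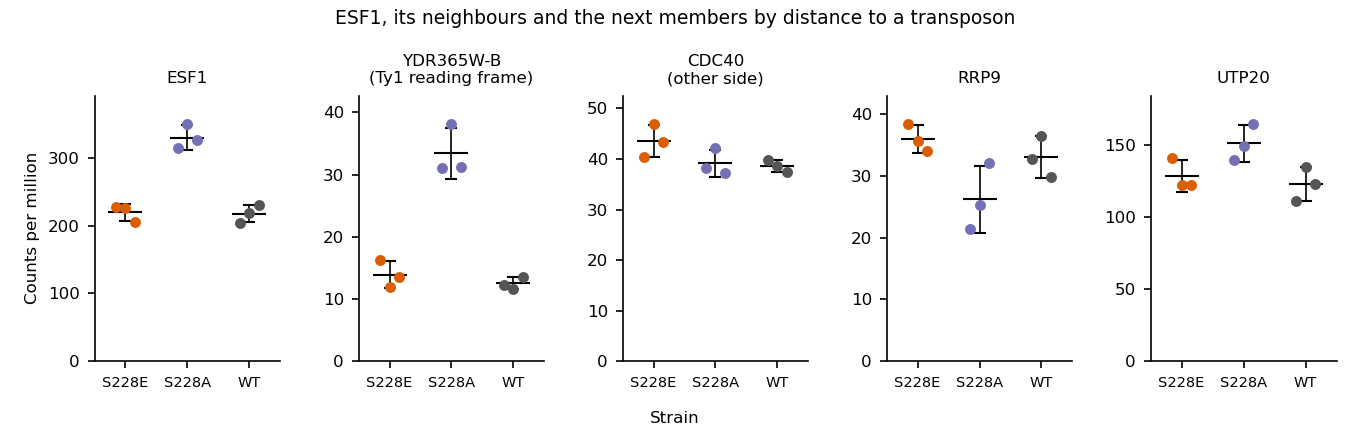
CPM per library in S228E, S228A and WT for ESF1, the neighbouring Ty1 reading frame YDR365W-B, CDC40 on the other side of ESF1, RRP9 and UTP20; points are libraries and bars are mean and SD (n = 3). ESF1 and YDR365W-B are higher in all 3 S228A libraries than in the other 6, while CDC40 overlaps between groups.

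Among the snoRNP core proteins, NOP56 and NOP58 passed the test in S228A against WT, 2 of 6, although NOP58 did so by a narrow margin. Both belong to box C/D particles, which guide methylation of rRNA. NOP58 (YOR310C) had 337, 314 and 331 CPM in S228E, 344, 352 and 371 CPM in S228A, and 295, 334 and 266 CPM in WT. Every S228A library was above every WT library, and the log2 fold change was 0.25 ± 0.08 (adjusted p = 0.0352). It did not pass with only the 6 libraries compared (adjusted p = 0.0674), nor without S228A replicate 1 or 3 or WT replicate 1 or 3, with adjusted p-values of 0.0547, 0.0937, 0.103 and 0.0946. NOP56 rose by 0.25 ± 0.07 (adjusted p = 0.0185). NOP1, of the same particles, had 884, 839 and 834 CPM in S228E, 906, 860 and 1062 CPM in S228A, and 861, 931 and 781 CPM in WT. Its groups overlapped, and its log2 fold change of 0.14 ± 0.09 did not pass (adjusted p = 0.289). The H/ACA proteins CBF5 and GAR1 were at -0.01 ± 0.08 and 0.02 ± 0.09, with adjusted p-values of 0.951 and 0.904.

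In the UTP-A and UTP-B subcomplexes, which bind early to the leading end of the precursor, all 10 members had positive log2 fold changes in S228A over WT and 2 passed the test. UTP8 (YGR128C), of UTP-A, had 95.8, 90.7 and 78.5 CPM in S228E, 92.8, 115 and 97.2 CPM in S228A, and 70.3, 83.5 and 74.3 CPM in WT. All S228A libraries exceeded all WT libraries, and the S228E libraries overlapped both. The log2 fold change of S228A over WT was 0.42 ± 0.10 (adjusted p = 0.00695). PWP2 (YCR057C), of UTP-B, had 149, 139 and 133 CPM in S228E, 155, 165 and 166 CPM in S228A, and 122, 145 and 122 CPM in WT. The S228A libraries were above the other 6, and the log2 fold change over WT was 0.32 ± 0.08 (adjusted p = 0.00936). The other UTP-A members ranged from 0.14 to 0.25 and the other UTP-B members from 0.02 to 0.20, none passing the test.

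UTP22, the only member of the UTP-C subcomplex, had the smallest p after ESF1. It had 167, 148 and 147 CPM in S228E, 172, 181 and 189 CPM in S228A, and 139, 144 and 137 CPM in WT. The 3 groups formed a ladder with no overlap, S228A highest and WT lowest. The log2 fold change was 0.37 ± 0.07 for S228A over WT (adjusted p = 0.00223) and 0.14 ± 0.07 for S228E over WT (adjusted p = 0.855), which did not pass the test. UTP22 is also the 1 member with neither a PAC nor an RRPE core in its promoter window.

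None of the 5 members of the Mpp10 subcomplex and its Sas10-domain partners passed the test in S228A against WT, although all 5 had positive log2 fold changes. IMP3 (YHR148W), an RNA-binding protein that helps U3 pair with the precursor, had the largest value of this group, 0.27 ± 0.15 (adjusted p = 0.178). It had 29.3, 28.6 and 26.7 CPM in S228E, 24.6, 39.1 and 28.5 CPM in S228A, and 25.6, 28.4 and 22.6 CPM in WT. The S228A value rests on replicate 2: without it the log2 fold change was 0.07.

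Of the 12 other small subunit factors, ESF1, UTP20 and KRR1 passed the test. KRR1 (YCL059C), an RNA-binding protein with a KH domain, had 77.8, 74.8 and 77.7 CPM in S228E, 87.4, 106 and 94.9 CPM in S228A, and 71.9, 88.6 and 79.2 CPM in WT. The S228A and WT ranges overlapped, and the log2 fold change was 0.26 ± 0.09 (adjusted p = 0.0363). RRP9 ran the other way, with 38.4, 35.7 and 34.0 CPM in S228E, 21.4, 25.3 and 32.1 CPM in S228A, and 32.8, 36.5 and 29.9 CPM in WT. Its S228A libraries were spread widely, and the highest of them lay inside the WT range. Its log2 fold change over WT was -0.20 without S228A replicate 1 and -0.50 without S228A replicate 3, where it passed the test (adjusted p = 0.00716). The remaining 8 factors ranged from 0.00 for UTP14, the activator of a processome helicase, to 0.23 for NOP14.

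**Figure D4:**
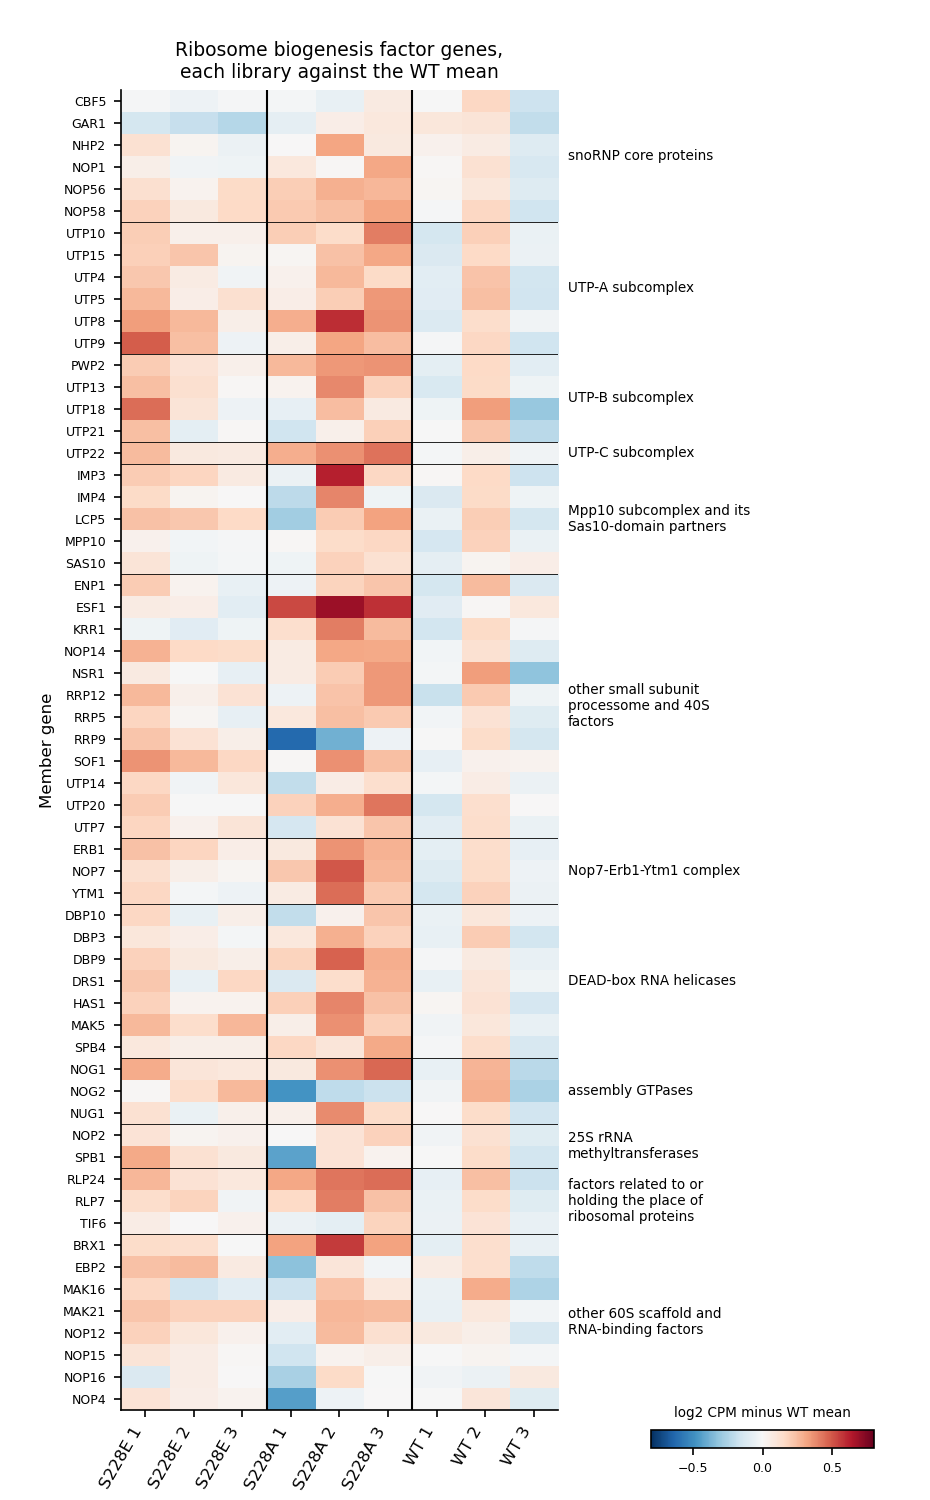
Heat map of log2 CPM minus the WT mean for the 60 members (rows, by role) in the 9 libraries (columns, S228E, S228A, WT). ESF1 is the darkest row across all 3 S228A libraries, RRP9 and NOG2 are lower there, and in WT replicate 2 59 of 60 rows are above the WT mean.

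On the large subunit side, the Nop7-Erb1-Ytm1 complex, which is needed to process the precursor of 5.8S and 25S rRNA, had 3 positive log2 fold changes of 0.24 to 0.33 in S228A over WT, and 1 passed the test. NOP7 (YGR103W) had 238, 225 and 219 CPM in S228E, 252, 306 and 261 CPM in S228A, and 203, 240 and 211 CPM in WT. Its S228A libraries were above the other 6, and the log2 fold change was 0.33 ± 0.09 (adjusted p = 0.0141). All 7 DEAD-box helicases had positive values, and DBP9 and HAS1 passed. DBP9 (YLR276C) had 126, 117 and 114 CPM in S228E, 126, 154 and 136 CPM in S228A, and 110, 116 and 107 CPM in WT. The lowest S228A library equalled the highest S228E library to 3 digits, and all S228A libraries exceeded all WT libraries. Its log2 fold change over WT was 0.32 ± 0.08 (adjusted p = 0.0101), and that of HAS1 was 0.27 ± 0.09 (adjusted p = 0.0277).

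RLP24 and RLP7, which are related to ribosomal proteins, passed the test, and TIF6, which was grouped with them, did not. RLP24 (YLR009W), which holds the place of a ribosomal protein in the precursor until it is exchanged, had 113, 102 and 100.1 CPM in S228E, 117, 127 and 129 CPM in S228A, and 90.1, 111 and 83.8 CPM in WT. The S228A libraries were above the other 6, and the log2 fold change over WT was 0.38 ± 0.10 (adjusted p = 0.0101). RLP7 rose by 0.27 ± 0.09 (adjusted p = 0.0382), while TIF6 was at 0.02 ± 0.08 (adjusted p = 0.874). BRX1 (YOL077C), a Brix-domain factor of the early 60S precursor, was the only 1 of the 8 other 60S scaffold and RNA-binding factors to pass. It had 106, 105 and 95.6 CPM in S228E, 120, 141 and 120 CPM in S228A, and 90.9, 105 and 92.0 CPM in WT, with every S228A library above the other 6. Its log2 fold change over WT was 0.40 ± 0.09 (adjusted p = 0.00378).

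The members with negative log2 fold changes in S228A over WT were few, and none passed the test with all 9 libraries. They were RRP9, the GTPase NOG2, NOP4 at -0.15, SPB1 at -0.08, EBP2 at -0.08, NOP16 at -0.03, NOP15 at -0.03 and CBF5 at -0.01. NOG2 (YNR053C), a GTPase of the nuclear 60S precursor, had 62.2, 68.0 and 73.9 CPM in S228E, 44.4, 53.5 and 54.9 CPM in S228A, and 60.5, 75.0 and 51.8 CPM in WT. The S228A and WT ranges overlapped, and the log2 fold change was -0.29 ± 0.13 (adjusted p = 0.0911). It was -0.14 without WT replicate 2 and -0.40 without WT replicate 3, where it passed the test (adjusted p = 0.0214). NOG1, another assembly GTPase, was at 0.30 ± 0.13 (adjusted p = 0.0896), so the 2 largest values of this group had opposite signs. NOP2, the other methyltransferase of 25S rRNA, was at 0.10. Leaving aside the 6 snoRNP core proteins, 27 of 28 small subunit members and 20 of 26 large subunit members were positive, with medians of 0.19 and 0.18. Sides were assigned by whole role group, with all DEAD-box helicases on the large subunit side. Members that act for both subunits were not set apart.

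**Figure D5:**
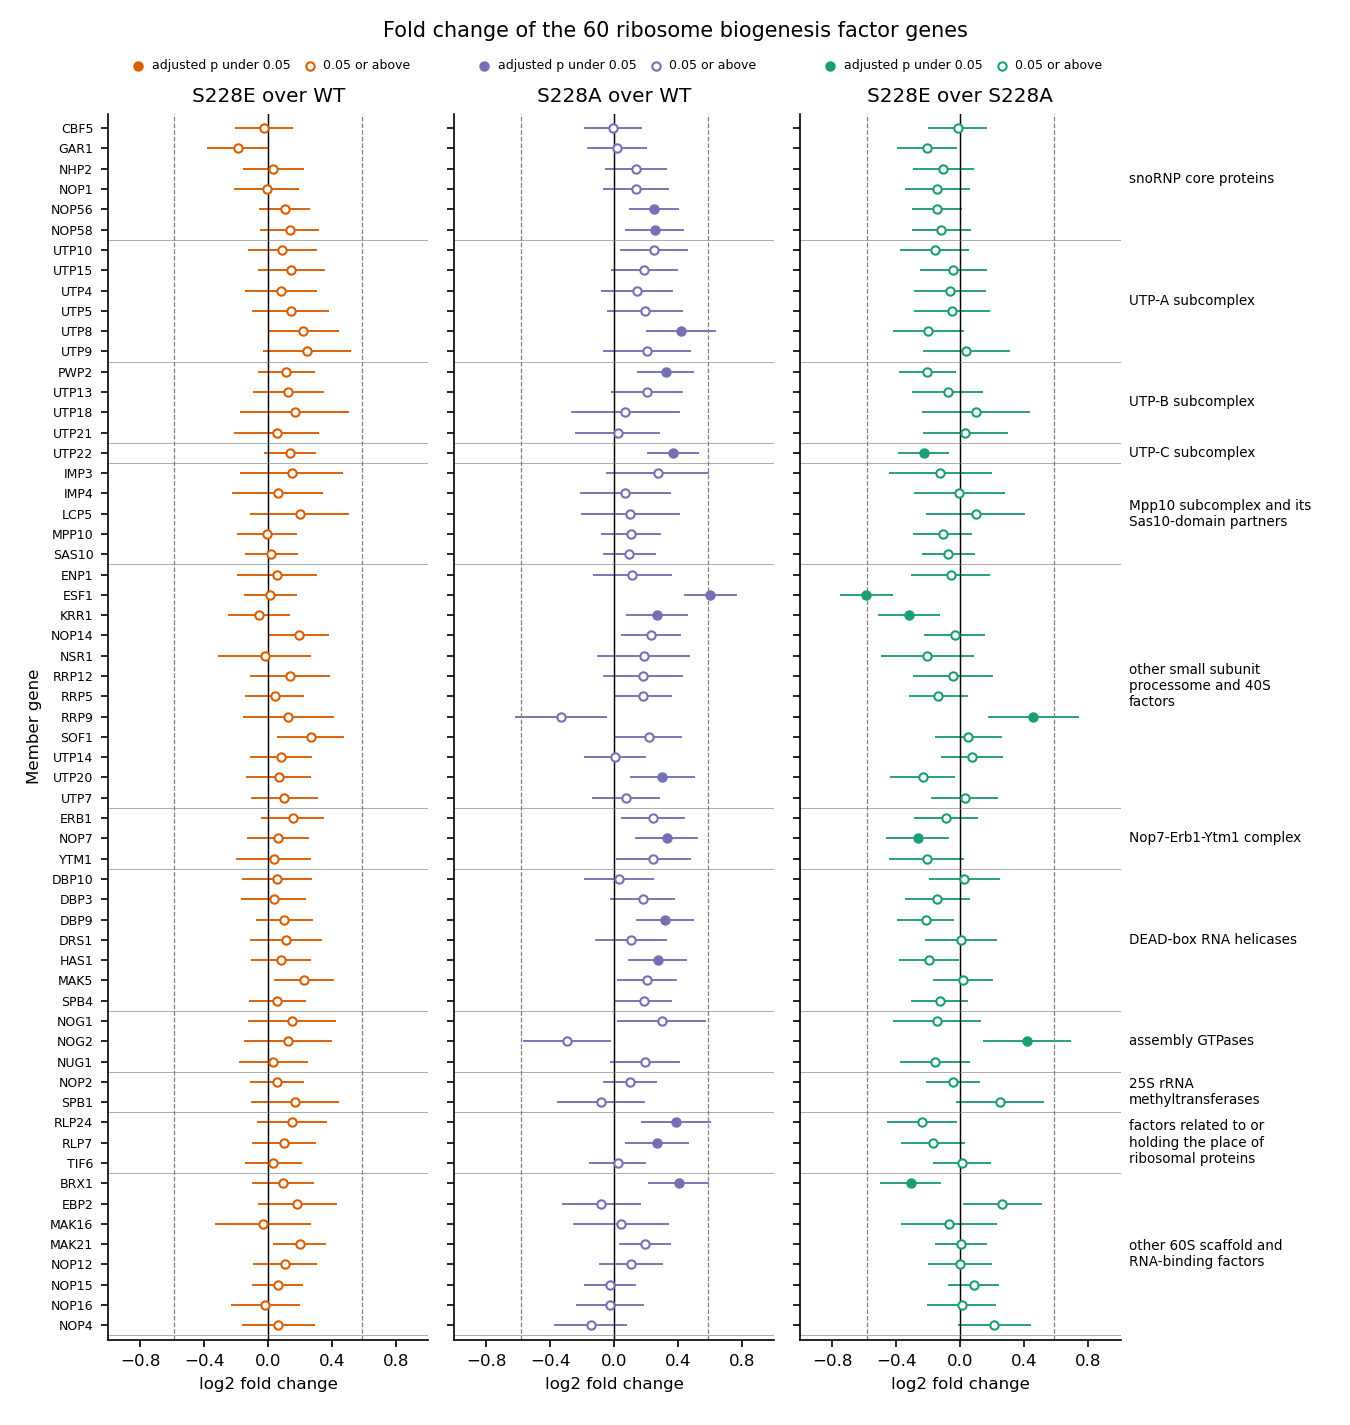
Log2 fold change with 95% interval for the 60 members by role, for S228E over WT (left), S228A over WT (middle) and S228E over S228A (right); filled points have an adjusted p under 0.05, and dashed lines mark a 1.5-fold change. The filled points number 0, 14 and 7 from left to right, and ESF1 alone has a point beyond a dashed line.

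In S228E against WT no member passed the test. Among all rows 0.0489% were called, so the test had few calls anywhere in this comparison. By edgeR 0 members had an adjusted p under 0.05, and DESeq2 and limma-voom also gave 0. At an unadjusted p under 0.05, 4 members (6.67%) were higher in S228E, against 1.79% of all rows, and 1 (1.67%) was lower, against 3.83%. The 4 became 0 without S228E replicate 1 or WT replicate 1, 1 without WT replicate 3 and 17 without WT replicate 2. Positive log2 fold changes were seen in 52 of 60 members (86.7%), against 48.8% of all rows. The median log2 fold change was 0.09, against -0.00 over all rows. It was 0.04 with 43 positive without S228E replicate 1, and 0.16 with 58 positive without WT replicate 2. In 5 members (8.33%) every S228E library was above every WT library, against 6.73% of all rows, and in none was every S228E library below, against 7.68%. This comparison and that of S228A use the same 3 WT libraries, so the 2 medians are not independent.

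The 4 members with the smallest p among those higher in S228E were SOF1, MAK5, MAK21 and NOP14. SOF1 (YLL011W), a protein with WD repeats that associates with U3, had 41.5, 38.7 and 36.2 CPM in S228E, 32.5, 41.7 and 38.2 CPM in S228A, and 30.9, 33.1 and 33.0 CPM in WT. All S228E libraries were above all WT libraries, and the log2 fold change was 0.26 ± 0.10 with an adjusted p of 0.761. The helicase MAK5 was at 0.22 ± 0.09, MAK21, a scaffold of the early 60S precursor, at 0.20 ± 0.08, and NOP14 at 0.19 ± 0.09, with adjusted p-values of 0.767, 0.767 and 0.849. GAR1 had the most negative value, -0.19 ± 0.09 (adjusted p = 0.849), with 217, 211 and 204 CPM in S228E, 228.2, 248.2 and 253.4 CPM in S228A, and 255, 258 and 209 CPM in WT. KRR1, MAK16 and CBF5 followed at -0.06, -0.03 and -0.03. The 95% interval of SOF1 ran from 0.05 to 0.48, and that of KRR1 from -0.25 to 0.14. Such intervals are for single genes and are not adjusted for the number of rows tested.

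S228E against S228A sets the mutants side by side. By the test 5 members (8.33%) were lower in S228E, against 13.6% of all rows, and 2 (3.33%) were higher, against 16.1%. Only ESF1 also passed the fold threshold, 1 of 60 (1.67%) against 11.1% of all rows. Positive log2 fold changes were seen in 19 of 60 members (31.7%), against 49.3% of all rows. The median log2 fold change was -0.07, against -0.004 over all rows. Leaving out 1 library at a time, it ran from -0.14 without S228E replicate 1 to -0.04 without S228A replicate 2, and the positive members from 7 without S228A replicate 1 to 25 without S228A replicate 3. In 12 members (20%) every S228E library was below every S228A library, against 22.2% of all rows, and in 3 (5%) every one was above, against 22.7%.

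The 5 lower members were ESF1, KRR1, BRX1, NOP7 and UTP22. KRR1 fell by 0.32 ± 0.09 on the log2 scale in S228E against S228A (adjusted p = 0.0166), and none of its libraries overlapped between the 2 groups. BRX1 fell by 0.31 ± 0.09 (adjusted p = 0.0184), NOP7 by 0.27 ± 0.09 (adjusted p = 0.0426) and UTP22 by 0.23 ± 0.07 (adjusted p = 0.0332). ESF1 alone of the 7 members that passed did so under all 17 alternatives. KRR1 failed without S228E replicate 2 or S228A replicate 2 (adjusted p = 0.0599 and 0.0533), and BRX1 without S228E replicate 3 or S228A replicate 2 (adjusted p = 0.0724 and 0.054). NOP7 failed in 6 alternatives, with library totals and without S228E replicate 1, 2 or 3, S228A replicate 2 or WT replicate 1, with adjusted p-values of 0.0527 to 0.125. UTP22 also failed in 6, among them library totals and leaving out S228E replicate 2 or 3, S228A replicate 3 or WT replicate 1, with adjusted p-values of 0.0552 to 0.114. The next members by p were PWP2 at -0.21 ± 0.08, DBP9 at -0.22 ± 0.08 and UTP20 at -0.23 ± 0.09, with adjusted p-values of 0.078, 0.0673 and 0.0787. RRP9 and NOG2 rose in S228E against S228A, by 0.46 ± 0.13 and 0.42 ± 0.13, with adjusted p-values of 0.0196 and 0.0254. For both genes all 3 S228E libraries were above all 3 S228A libraries. EBP2 at 0.26 ± 0.11, SPB1 at 0.25 ± 0.13 and NOP4 at 0.21 ± 0.11 came next, with adjusted p-values of 0.102, 0.164 and 0.154, followed by NOP15, LCP5 and UTP14 at 0.08, 0.10 and 0.07. Neither RRP9 nor NOG2 passed without S228E replicate 2, with adjusted p-values of 0.058 and 0.0731, or without S228A replicate 1. RRP9 also failed without S228E replicate 1 or S228A replicate 2, and NOG2 without S228E replicate 3; their highest adjusted p-values were 0.0787 and 0.11.

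Other genes of the pathway were counted by list in the same fit. Of the 134 further assembly factors tested, 18 were higher and 3 lower in S228A than in WT at an adjusted p under 0.05, with a median log2 fold change of 0.12. These are 13.4% and 2.24% of the list, against 15.5% of all rows higher and 19.4% lower in that comparison. BUD23, the methyltransferase of 18S rRNA, was the only 1 of them called. It had 30.2, 26.2 and 26.8 CPM in S228E, 18.1, 21.3 and 27.6 CPM in S228A, and 33.8, 41.9 and 26.8 CPM in WT, and fell by 0.61 ± 0.17 in S228A against WT (adjusted p = 0.0132), with ranges that overlapped. BUD23 did not pass without S228A replicate 1 or without WT replicate 2. The 134 include 24 exosome and nuclease genes, of which 1 (4.17%) was higher and none lower. Of 136 ribosomal protein genes, 46 (33.8%) were higher and 2 (1.47%) lower in S228A than in WT, with a median of 0.21 and none called. In S228E against S228A, 60 ribosomal protein genes (44.1%) were lower, against 13.6% of all rows, and 2 (1.47%) higher, against 16.1%, with a median of -0.25. How reads shared by near-identical pairs of ribosomal protein genes were counted is likewise not known.

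Among 15 genes of RNA polymerase I and its initiation factors, 5 (33.3%) were higher and 3 (20%) lower in S228A than in WT. The shares of all rows were 15.5% and 19.4%. Of the 15 genes, RRN11 was called. RRN11, a subunit of the core factor that recruits the polymerase, had 11.7, 8.35 and 7.42 CPM in S228E, 40.8, 54.8 and 35.9 CPM in S228A, and 6.70, 7.21 and 6.75 CPM in WT. The S228A libraries were far above the other 6, and the log2 fold change was 2.67 ± 0.19 for S228A over WT (adjusted p = 2.36e-07) and -2.25 ± 0.18 for S228E over S228A (adjusted p = 9.08e-07). RRN11, like ESF1, lies beside a Ty1 element. YMLWTy1-1 ends 160 bases beyond the 3′ end of RRN11 and runs towards it on the opposite strand. Reads were counted without strand, so transcripts of either strand over RRN11 cannot be told apart.

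In a list of 14 genes, made of regulators of these genes and the 60S export factor ARX1, 3 (21.4%) were higher and 2 (14.3%) lower in S228A than in WT. ARX1 is also counted among the further assembly factors. TOD6, the repressor that binds PAC, was called higher. It had 46.5, 45.7 and 37.6 CPM in S228E, 50.1, 62.2 and 61.6 CPM in S228A, and 35.3, 43.3 and 36.8 CPM in WT, with a log2 fold change of 0.59 ± 0.11 (adjusted p = 0.00145), which fell under the 1.5-fold threshold without S228A replicate 2 or 3 or WT replicate 1 or 3. All S228A libraries were above the other 6. FHL1, a factor at ribosomal protein promoters, had 50.4, 53.4 and 50.6 CPM in S228E, 29.7, 31.4 and 31.3 CPM in S228A, and 45.9, 41.6 and 47.3 CPM in WT. It was called in S228E against S228A, at 0.74 ± 0.07 (adjusted p = 7.46e-06), with no overlap. FHL1 was also lower in S228A than in WT, at -0.54 (adjusted p = 0.000111), which is under the 1.5-fold threshold. That difference passed the test under all 17 alternatives.

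Base composition was set against the differences among members. The GC content of the member genes ranged from 34.3% to 47.5%, and across the 60 genes its Spearman correlation with the log2 fold change of S228A over WT was -0.42. Over 5720 protein-coding rows the same correlation was -0.20. Gene length and level per length had weaker correlations across the members, of 0.15 and 0.22. For S228E over WT, where no member passed the test, the correlation of GC content with the log2 fold change across the 60 genes was -0.33. Both comparisons use the same WT libraries, so the GC correlations of S228A and S228E are not independent. The genes of a comparison share the same libraries and are not independent replicates, so these values describe the list.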

How the data were processed

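The deposited counts are whole numbers per gene in 9 libraries; per the file headers, featureCounts 2.0.1 counted paired-end reads over exons of an Ensembl annotation, with no strand, overlap or multiple-placement option set. The table also gives gene length in bases, used for RPKM. Bowtie 0.12.2 and sacCer3 are listed in the submitters' processing notes, with no role; which aligner placed these reads is not stated. The labels' protocols name a KAPA library kit and an extraction for chromatin immunoprecipitation, whereas the design text describes RNA extraction. Columns, named by a letter and a number, were matched to strains and replicates by genotype initial and number. No row was a total.

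Rows were filtered with filterByExpr, scaled by TMM and tested with the quasi-likelihood test of edgeR 4.0.16, run in R 4.3.3 on all 9 libraries at once, with Benjamini-Hochberg adjustment over 6133 rows. Errors of fold changes are standard errors. The common biological coefficient of variation was 9.61%. DESeq2 1.42.0, limma-voom (limma 3.58.1), other scalings and filters, fewer libraries and a replicate block were alternatives. The procedure was tested on simulated data. No library pair looked like a duplicate (chi-square per gene 6.38 to 58.6 between replicates). Identifiers were matched to RefSeq R64 (6047 of 7127 rows, 6038 with identical start and end, all 60 members among them), from which promoter windows were read with Python 3.11.

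Members and lists were chosen with earlier results of these data known. Genes were named by rule: called members, those with the smallest p in each direction and comparison, the highest and lowest levels, the extremes of each role group, neighbours of a called member, and called genes of other lists. NOP56, HAS1, RLP7, SPB4, ERB1 and UTP15 were named after their values were seen.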

Additional observations from a re-analysis of the deposited data

How the results depend on the processing

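Under the 17 alternatives the members' median ran from 0.129 to 0.256 in S228A over WT, 0.0378 to 0.165 in S228E over WT and -0.144 to -0.0399 in S228E over S228A. With scaling by library totals only, 3 members were lower in S228E than in S228A and 0 were called there. Leaving out 1 library at a time, the members higher in S228A than in WT numbered 6 to 26 and those lower 0 to 1, with 0 to 1 called. In S228E against S228A, 0 to 2 were higher, 2 to 7 lower and 0 to 2 called; the count was 0 without S228E replicate 3 or S228A replicate 2, and 2 without S228A replicate 3, when RRP9 joined ESF1. The cause was not tested.

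A change of sign under at least 1 alternative was seen in 15 members in S228A over WT, 20 in S228E over WT and 23 in S228E over S228A, with reported values of up to 0.09994, 0.0653 and 0.125 in size. Those named in the text follow. CBF5 in S228A over WT was 0.00772 with RLE scaling, 0.00773 with DESeq2, 0.00217 with the 6 libraries compared, and -0.0774 to 0.0809 leaving out 1 library; in S228E over WT it was 0.00077 with library totals and -0.105 to 0.065. Leaving out 1 library gave, in S228A over WT, -0.164 to 0.0343 for EBP2, -0.0613 to 0.0383 for NOP15, -0.116 to 0.07996 for NOP16 and -0.176 to 0.0673 for SPB1. In S228E over WT it gave -0.0322 to 0.0562 for ESF1, -0.128 to 0.026 for KRR1 and -0.148 to 0.134 for MAK16, and in S228E over S228A -0.0603 to 0.218 for LCP5 and -0.0153 to 0.142 for UTP14.

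Replicate numbers did not pair the libraries: correlations of same-numbered deviations ran from -0.251 to 0.229. With the replicate block, 13 members were higher in S228A than in WT, 2 were higher and 4 lower in S228E than in S228A, and ESF1 was still called in both; NOP58 no longer passed in S228A over WT (adjusted p = 0.0574), nor UTP22 in S228E over S228A (adjusted p = 0.0593). An RPKM over unshared bases only, chosen after seeing the data, is given with the levels. With 3 libraries per group and a shared movement of the members between replicates, the smallest log2 difference of a member that passed the test was 0.23, in size.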
